A study of Naumovozyma castellii with 14 samples.

Results

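Xrn1-sensitive unstable transcripts (XUTs) are non-coding RNAs defined by their accumulation in yeast cells without the 5′ exonuclease Xrn1. The 401 XUTs described here lie antisense to protein-coding genes of the budding yeast Naumovozyma castellii. Each overlapped at least 1 nt of an mRNA on the opposite strand of the same chromosome, and none overlapped a cryptic unstable transcript (CUT, a class cleared by the nuclear exosome in Saccharomyces cerevisiae) on its own strand. They are 401 of the 965 XUTs and of the 8343 distinct features in the deposited annotation. Of the other XUTs, 240 lay opposite no mRNA and 324 overlapped a CUT. The choice used positions only and no measured value. No library without Xrn1 was among those analysed, so the sensitivity that gives the class its name was not checked here.

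In yeast, most cytoplasmic mRNA decay ends with Xrn1, which digests RNAs from the 5′ end after the cap has been removed. Nonsense-mediated decay (NMD) leads to this enzyme: the helicase Upf1, acting with translating ribosomes, directs RNAs with an early stop codon to decapping. In S. cerevisiae many antisense XUTs are also NMD substrates, and an antisense RNA can lower the output of the gene it crosses. N. castellii, unlike S. cerevisiae, has kept RNA interference, in which the nuclease Dicer cuts double-stranded RNA such as a sense and antisense pair could form.

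Total RNA depleted of ribosomal RNA was sequenced with strand-specific libraries from 14 samples in 5 groups, all on a MATalpha ura3-1 ho background. The groups were dcr1 upf1 (a dcr1 allele with upf1::kanMX6, 2 libraries), upf1 CHX (upf1::kanMX6 with cycloheximide, 2 libraries), upf1 (upf1::kanMX6, 4 libraries), WT CHX (2 libraries) and WT (4 libraries). Cycloheximide, which blocks translation elongation, was given at 100 µg/mL for 15 min, and all cells grew in rich medium at 25 °C to an OD600 of 0.5. Each genotype was 1 strain, and since no label says that replicates were separate cultures, p-values measure only the spread between these libraries, which may be technical.

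Reads assigned to features ranged from 7895089 to 22437334 per library, and XUTs antisense to genes took 0.400% to 0.724% of them. NAM7, the gene for Upf1, had 0 reads in each of the 8 libraries without Upf1, a count that allows at most 3 reads per library (counting error only), and 5428 reads over the 4 WT libraries. XRN1 itself averaged 1.03 ± 0.12 reads per nt in upf1 and 1.00 ± 0.12 reads per nt in WT (SD, n = 4 each), a difference that was not called. Values are read densities, that is, reads divided by the library's size factor and then by feature length in nt. Under the deposited size factors the median log2 change of the 37 snoRNAs lay between -0.04 and 0.04 in every comparison, whereas that of the mRNAs was 1.35 in WT CHX against WT. A change is thus relative to a level at which snoRNAs stayed even. Scaling on the mRNAs instead (mRNA-ratio scaling) put the median mRNA at 0.07 in that comparison. In upf1 CHX against upf1 the median mRNA was at 0.86 as deposited and -0.05 when scaled on the mRNAs, and in upf1 against WT at 0.20 and -0.10. Counts of XUTs under mRNA-ratio scaling are given below without the share over all features. They show only how far a count depends on the scaling.

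The antisense XUTs were short and mostly overlapped the start of a gene. Their length ran from 201 to 3526 nt with a median of 533 nt: 180 were under 500 nt, 144 were 500 nt to under 1000 nt, 59 were 1000 nt to under 2000 nt, and 18 reached 2000 nt. The 240 XUTs that face no gene had a median length of 473 nt, and the 324 that overlap a CUT one of 811.5 nt. The overlap with opposite mRNAs was 5 to 2011 nt (median 367 nt), and genes covered 2.28% to 100% of an XUT (median 77.7%). Nearly all mRNA entries (97.6%) had lengths that are multiples of 3, so they are coding spans, and overlap with untranslated regions is not counted. Of the 401, 194 covered the 5′ end of the coding span, 120 lay within it, 45 covered its 3′ end and 42 crossed it whole. 381 faced 1 gene and 20 faced 2, and 385 different genes were involved, 30 XUTs sharing their main gene with another. At the edge of the rule, XUT0072 overlapped its gene by 5 nt, XUT0172 by 8 nt and XUT0865 by 12 nt, whereas XUT0505 and XUT0523 missed the nearest opposite mRNA by 9 nt and XUT0266 by 12 nt.

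Antisense XUTs were rare in WT cells and more abundant in every other group. The median density over all 401 was 0.0201 and 0.0224 reads per nt in the dcr1 upf1 libraries, 0.0634 and 0.0560 in upf1 CHX, 0.0220, 0.0203, 0.0246 and 0.0248 in upf1, 0.0535 and 0.0514 in WT CHX, and 0.0081, 0.0062, 0.0067 and 0.0084 in WT. No WT library reached any library of another group, and dcr1 upf1 and upf1 overlapped. In bulk samples, fewer cells that hold a transcript and less of it per cell cannot be told apart. The median XUT had 49 reads over the 4 upf1 libraries and 12 reads over the 4 WT libraries, 171 of 401 had under 10 reads over the WT libraries, and 7 had none. Depth therefore limits what can be said of single XUTs, and 279 of 401 reached the mean density of 0.02 reads per nt required for testing.

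**Figure D1:**
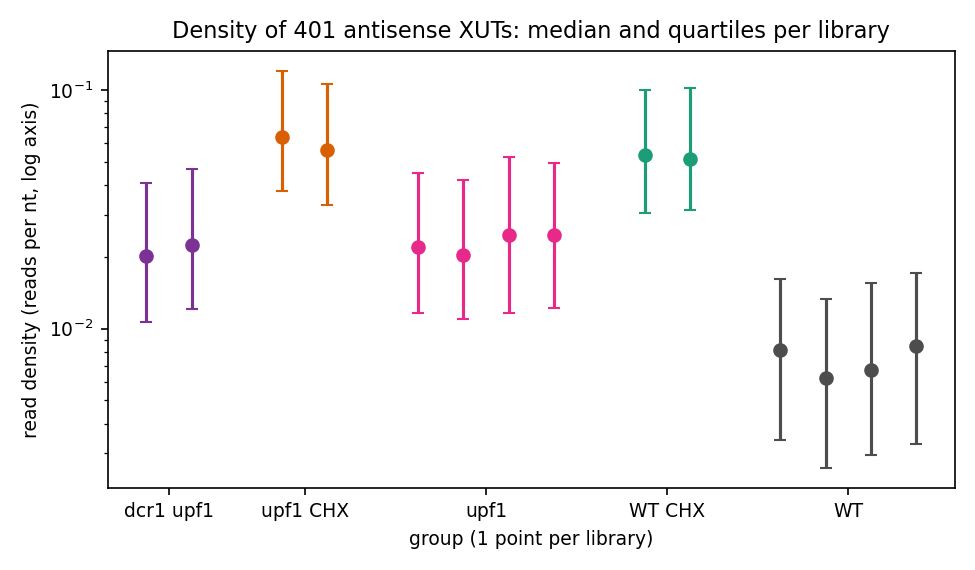
Read density (reads per nt, log axis) of the 401 antisense XUTs in each of the 14 libraries: points are medians over XUTs and bars run between the quartiles. The WT medians lie at 0.0062 to 0.0084 reads per nt, below those of all other groups, and the medians with cycloheximide lie at 0.0514 to 0.0634 reads per nt.

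Longer XUTs were more abundant. In upf1 the median density was 0.0155 reads per nt for XUTs under 500 nt, 0.0241 for 500 nt to under 1000 nt, 0.0826 for 1000 nt to under 2000 nt and 0.277 for those of 2000 nt and over. The same classes had 0.0054, 0.0075, 0.0202 and 0.0618 reads per nt in WT. Those that cross a whole gene were at 0.129 in upf1 and 0.0248 in WT, and those within a gene at 0.0154 in upf1 and 0.0053 in WT. Length and reads went together (Spearman rho 0.810 over the 401 XUTs of these libraries, a description), so long XUTs are also the better measured ones.

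Loss of Upf1 raised most of the XUTs that could be tested. In upf1 against WT, 212 of the 279 tested were higher and 0 were lower (limma on log2(density + 0.02), Benjamini-Hochberg adjusted p under 0.05 over all features), against 40.5% higher and 0.585% lower among the 7518 features tested. None of the 279 was lower at an unadjusted p under 0.05 or by voom on the recovered reads either, and mRNA-ratio scaling gave 194 higher and 5 lower. The median log2 change of the 279 was 0.78, against 0.25 over all tested features. The pseudocount of 0.02 lies above most WT values, so this understates the change. Fitted by voom on the reads, with no filter, the median over all 401 was 1.55, against 0.29 over all features. By that fit 253 of 401 were higher (36.9% of 8341 features). All 4 upf1 libraries lay above all 4 WT libraries for 186 of the 279, as for 36.7% of features.

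Upf1 loss was also fitted within replicates 1 and 2 and within replicates 3 and 4, a split by replicate number that no label explains. Within the first pair 171 of the 279 were higher in upf1, and within the second 195. The shares over all features in these 2 fits are not given here, so the counts do not set the class apart from other features. Other classes are given side by side, since no test of the difference between classes was made. Of tested XUTs that face no gene 144 of 188 were higher (median log2 change 0.92), of XUTs overlapping a CUT 238 of 301 (median 0.89), and of CUTs antisense to genes 102 of 347 (median 0.28). The mRNAs opposite the antisense XUTs were higher in 179 cases and lower in 4 of 363 (median 0.31), beside 36.2% higher and 0.661% lower among all mRNAs (median 0.20).

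The share that rose differed with length. It was 59.8% of the 102 tested under 500 nt, 84.0% of the 106 of 500 nt to under 1000 nt, 90.6% of the 53 of 1000 nt to under 2000 nt, and 14 of the 18 of 2000 nt and over. These shares are of XUTs that passed the density filter. By voom on all members with no filter they were 38.9% of 180, 79.2% of 144, 91.5% of 59 and 15 of 18. The voom medians over all members, tested or not, were 1.21, 1.70, 2.11 and 1.73 in the same order. As a description over the 401, the voom change and length had a Spearman rho of 0.331. Median reads over the 14 libraries were 111.5, 286.5, 1947 and 8835.5 in these classes, and the part of depth in the difference was not tested.

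By extent of overlap the shares were near each other except for XUTs lying wholly opposite coding sequence. Of tested XUTs, 15 of 19 rose where under 25% of the XUT was covered, 37 of 46 at 25% to 50%, 68 of 84 at 50% to 75% and 55 of 69 at 75% to 100%. The share was 60.7% of 61 for fully covered XUTs, and by voom with no filter 38.0% of all 121 of them, with a voom median of 1.09. These were also shorter, with a median of 325 nt (rho of length with percent covered -0.375). Among XUTs under 500 nt, 53.3% of 45 fully covered and 64.9% of 57 less covered ones rose. Among those of 500 nt and over it was 13 of 16 and 85.7% of 161. By position on the gene, 83.2% of those over a 5′ end and 82.9% of those crossing a gene rose, against 62.9% over a 3′ end and 61.7% within a gene. The XUTs within a gene are nearly the same set as the fully covered ones (60 and 61 tested). Those over a 3′ end are another group with a lower share, and had a median length of 670 nt. By voom on all members it was 77.8% over a 5′ end, 76.2% crossing a gene, 53.3% over a 3′ end and 38.3% within a gene. None of these class differences was tested.

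**Figure D2:**
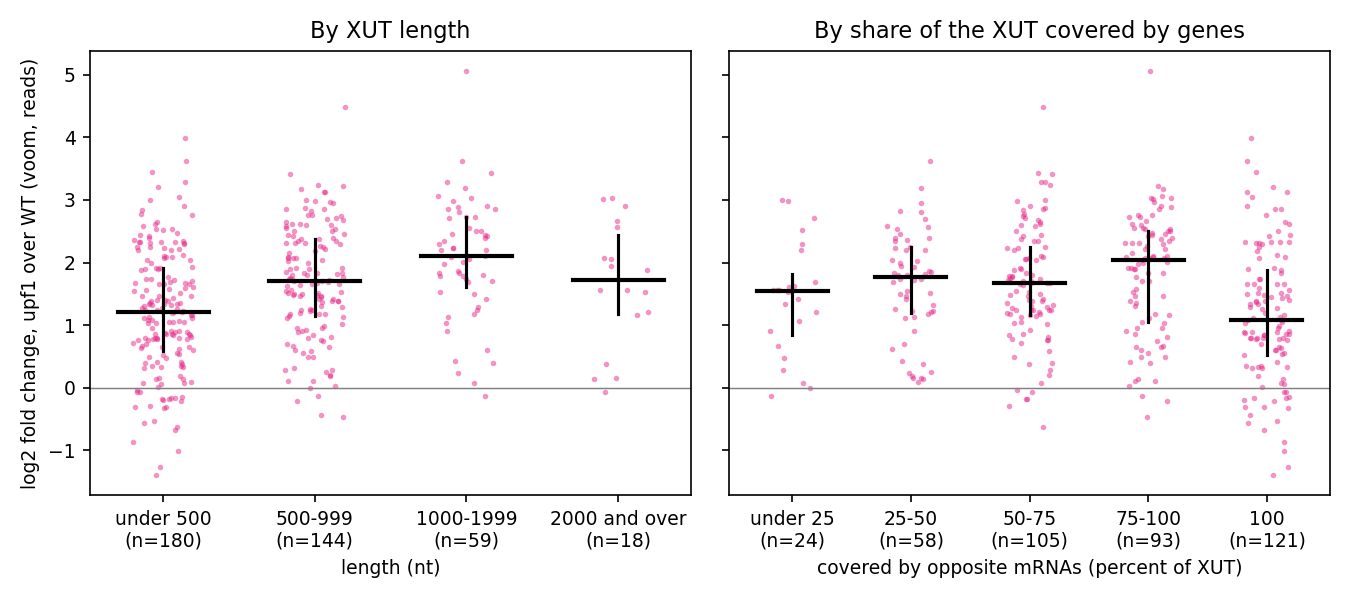
Log2 fold change of upf1 over WT (voom on recovered reads) for each of the 401 antisense XUTs, by length in nt (left) and by percent of the XUT covered by opposite mRNAs (right); bars give the median and the quartiles. Medians are 1.21 under 500 nt and 2.11 at 1000 nt to under 2000 nt, and 1.09 for fully covered XUTs.

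Of the 8 XUTs with the largest rise in upf1, 3 crossed a whole gene. The naming rule took only called XUTs with no overlap of libraries between the 2 groups compared. For XUTs named for such a change, here and below, the lack of overlap follows from that choice. XUT0352 (chromosome 2, 1035311-1037354, minus strand, 2044 nt) covers all of IME4 (1035557-1037230, plus strand), the mRNA methyltransferase gene that in S. cerevisiae is needed for meiosis and is itself held down by an antisense RNA in haploids. Its density was 2.01, 1.92, 2.75 and 2.45 reads per nt in upf1 and 0.300, 0.248, 0.257 and 0.306 in WT. Every upf1 library was above every WT library, a log2 change of 2.94 ± 0.12 (SE, adjusted p = 4.5e-12, limma). IME4 mRNA stood at 0 to 0.0012 reads per nt in upf1 and 0 to 0.00063 in WT, so reads of the 2 strands of this locus were kept apart in the counting.

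XUT0603 (chromosome 4, 944900-946956, minus strand, 2057 nt) crosses DAL4 (944946-946847), the allantoin permease gene, and at 1902 nt has one of the longest overlaps. It had 0.319, 0.317, 0.412 and 0.367 reads per nt in upf1 and 0.0467, 0.0326, 0.0429 and 0.0508 in WT. The groups did not overlap (log2 change 2.56 ± 0.12, adjusted p = 1.3e-11, limma). XUT0314 (chromosome 2, 548319-550120, plus strand, 1802 nt) crosses NCAS_0B03170 and had 0.401, 0.406, 0.548 and 0.465 reads per nt in upf1 against 0.0749, 0.0584, 0.0638 and 0.0767 in WT. Its rise was 2.42 ± 0.12 (adjusted p = 2.4e-11), and here the sense mRNA rose as well, by 1.92 ± 0.13 (adjusted p = 1.9e-09, limma).

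The others reached over one end of a gene. XUT0788 (chromosome 7, 302051-302994, minus strand) covers the 3′ end of NCAS_0G01700 and had the largest change, with 0.629, 0.632, 0.790 and 0.708 reads per nt in upf1 and 0.0603, 0.0743, 0.0666 and 0.0878 in WT (2.95 ± 0.11, adjusted p = 2.1e-12, limma). XUT0787 (chromosome 7, 300758-301806, same strand) covers the 5′ end of the same gene, so these 2 XUTs share a target: it had 0.207, 0.184, 0.361 and 0.298 in upf1 and 0.0241, 0.0128, 0.0166 and 0.0275 in WT. Neither pair of groups overlapped, and the gene itself did not exceed 0.0032 reads per nt in any upf1 or WT library. XUT0492 (chromosome 3, 795237-797221, minus strand, 1985 nt) covers 97.9% of GAT1, a GATA activator of nitrogen catabolic genes, from its 5′ end. It had 0.570, 0.522, 0.631 and 0.672 reads per nt in upf1 and 0.0834, 0.0769, 0.0761 and 0.0805 in WT (2.63 ± 0.10, adjusted p = 1.9e-12, limma).

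XUT0203 (chromosome 1, 2324799-2325999, plus strand) and XUT0079 (chromosome 1, 854991-855606, minus strand) touch only the last bases of their genes, 171 nt of ANT1, a peroxisomal adenine nucleotide carrier, and 30 nt of TGL1, a steryl ester hydrolase. XUT0203 had 0.792, 0.807, 0.947 and 0.813 reads per nt in upf1 and 0.103, 0.120, 0.0924 and 0.106 in WT. XUT0079 had 0.434, 0.444, 0.564 and 0.459 in upf1 and 0.0531, 0.0653, 0.0586 and 0.0546 in WT. The rises were 2.78 ± 0.11 and 2.66 ± 0.10 on the log2 scale (adjusted p = 1.9e-12 and 2.3e-12, limma). The size of the rise among these 8 thus went with no single extent of overlap, which ran from 4.87% to 92.5% of the XUT.

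**Figure D3:**
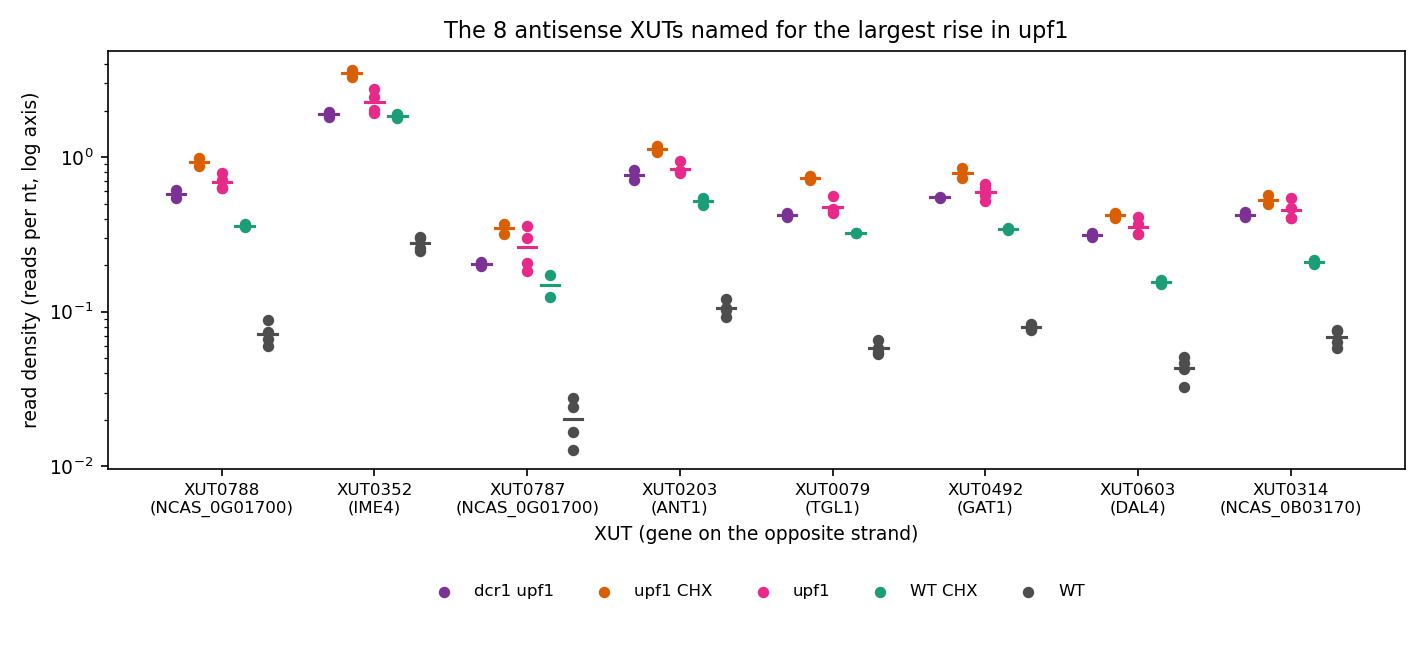
Read density (reads per nt, log axis) of the 8 antisense XUTs with the largest rise in upf1, in the 5 groups; points are libraries and lines are group means. For each XUT the 4 upf1 libraries lie above the 4 WT libraries, as the naming rule required, and so do the libraries of the other groups. The WT libraries are at 0.248 to 0.306 reads per nt for XUT0352.

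67 tested XUTs were not called in upf1, and the most abundant antisense XUTs are among them. XUT0589 (chromosome 4, 727215-728755, minus strand), which overlaps 129 nt at the 3′ end of the plasma membrane SNARE gene SSO2, alone took 18.3% to 41.1% of the reads of the whole class. It had 12, 12.9, 15.9 and 11.7 reads per nt in upf1 and 13.3, 11.9, 10.9 and 13.4 in WT (0.08 ± 0.11, adjusted p = 0.62, limma), and 12.9 and 12.7 in WT CHX. Its means of 13.1 in upf1, 12.4 in WT and 12.8 in WT CHX all lay within the range of the 4 WT libraries.

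XUT0859 (chromosome 8, 83398-85474, plus strand), which crosses NCAS_0H00470, had 3.21, 3.12, 3.42 and 4.03 reads per nt in upf1 and 3.88, 3.13, 3.38 and 4.03 in WT, groups that overlap. XUT0005 (chromosome 1, 34078-34851, plus strand), at the 3′ end of RBA50, an assembly factor of RNA polymerases, had 9.57, 10.3, 5.94 and 4.33 in upf1 and 11.8, 9.80, 3.21 and 4.19 in WT. Replicates 3 and 4 were lower than replicates 1 and 2 in both genotypes, and its change of 0.18 ± 0.43 was not called. The class total therefore says little of most members. XUTs antisense to genes took 0.565% to 0.646% of reads in upf1 and 0.400% to 0.459% in WT. This step was smaller than that of the median XUT density, but the measures are unlike. A share of reads depends on the reads of all other features, and a density on the size factors.

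The 3 longest XUTs each cross a gene whole and behaved differently. XUT0542 (chromosome 4, 175478-179003, 3526 nt), over the regulator of filamentous growth MSS11, had 0.0765, 0.0729, 0.0196 and 0.0230 reads per nt in upf1 and 0.0191, 0.0205, 0.0042 and 0.0092 in WT. These groups overlap, although the change of 0.94 ± 0.29 passed the test (adjusted p = 0.016, limma), and replicates 3 and 4 were again the lower ones. XUT0357 (chromosome 2, 1072591-1075934, 3344 nt), over NCAS_0B05650, had 1.07, 1.07, 1.41 and 1.29 in upf1 and 1.07, 0.905, 1.10 and 1.29 in WT and was not called. XUT0568 (chromosome 4, 477497-480708, 3212 nt), over NCAS_0D02520, had 0.351, 0.353, 0.372 and 0.364 in upf1 and 0.183, 0.135, 0.147 and 0.159 in WT, with no overlap (1.12 ± 0.10, adjusted p = 6.4e-08, limma). The other 2 of the 3 longest overlaps both rose: XUT0429 (chromosome 3, 34907-37406, 2011 nt of overlap with 2 genes) by 2.36 ± 0.11 and XUT0507 (chromosome 3, 905961-907936), which lies within RTC1, a gene of the SEA complex, by 0.78 ± 0.14 (adjusted p = 2.4e-11 and 0.00018, limma).

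A short cycloheximide treatment of WT cells also raised the class, as it raised nearly every feature under the deposited scaling. In WT CHX against WT 271 of 279 were higher and 0 lower, beside 94.1% higher and 0.146% lower among all features, with 0 lower also at an unadjusted p under 0.05 in limma and by voom. The median log2 change was 1.55, against 1.34 over all tested features. With no filter 92.3% of the 401 were higher, against 91.2% of all features, with medians of 1.29 and 1.28. By voom with no filter the medians were 2.60 over the 401 and 1.55 over all features. Scaled on the mRNAs, 182 were higher and 7 lower. Of the 4 named for the largest changes, XUT0182 and XUT0367 are short and lie over gene starts, and the other 2 are longer. XUT0182 (chromosome 1, 2034617-2034924, 308 nt), at the 5′ end of the uracil permease gene FUR4, had 0.390 and 0.460 reads per nt in WT CHX and 0.00685, 0, 0.0174 and 0.0078 in WT (4.02 ± 0.24, adjusted p = 3.7e-10, limma), yet 0.0093, 0.0022, 0.0042 and 0.0155 in upf1, which overlaps WT. XUT0367 (chromosome 2, 1247195-1247577, 383 nt), over the start of the recombination gene CSM2, had 0.187 and 0.241 in WT CHX and 0.0055, 0.0081, 0.0105 and 0 in WT (3.18 ± 0.25, adjusted p = 4.4e-09). Neither was called in upf1 against WT (adjusted p = 0.999 and 0.115, limma).

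XUT0671 (chromosome 5, 721821-722738), which covers 93.3% of MRX19, had 0.544 and 0.502 reads per nt in WT CHX and 0.0299, 0.0236, 0.0262 and 0.0458 in WT. XUT0253 (chromosome 1, 2951245-2952786), which crosses PRO3, the last enzyme of proline synthesis, had 0.269 and 0.315 in WT CHX and 0.0178, 0.0174, 0.0208 and 0.0210 in WT. Both rose without overlap, by 3.42 ± 0.21 and 2.99 ± 0.14 (adjusted p = 6.3e-10 and 7.1e-11, limma), and both were also called higher in upf1. The 8 XUTs not called under cycloheximide include XUT0589 and XUT0005.

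In cells already without Upf1, cycloheximide raised most of them, at the share seen over all features. In upf1 CHX against upf1 237 of 279 were higher and 0 lower, beside 84.4% and 0.239% of all features, and 0 were lower at an unadjusted p under 0.05 in limma or by voom. The median log2 change was 0.86 against 0.83 over all tested features, and with no filter 0.76 over the 401 against 0.80. Scaled on the mRNAs 55 were higher and 30 lower, so how many rose or fell in this comparison rests on the scaling. How the class stood beside all features under that scaling is not given here. XUT0182 and XUT0367 were again among the largest, by 4.18 ± 0.24 and 2.83 ± 0.25 (adjusted p = 1.5e-09 and 8.9e-08, limma). XUT0216 (chromosome 1, 2555369-2555715, 347 nt), at the start of the chromatin remodelling gene IOC4, had 0.254 and 0.244 reads per nt in upf1 CHX and 0.0227, 0.0270, 0.0263 and 0.0275 in upf1. XUT0197 (chromosome 1, 2248581-2248850, 270 nt), at the start of NVJ2, a gene for a lipid-binding protein of membrane contacts, had 0.161 and 0.130 in upf1 CHX and 0.0080, 0.0074, 0.0097 and 0.0294 in upf1. Both stood above every upf1 library (2.55 ± 0.16 and 2.34 ± 0.23, adjusted p = 3.2e-09 and 3.2e-07, limma). All 4 are under 500 nt, and over the 401 the voom change in this comparison had a Spearman rho of -0.360 with length, opposite in sign to that for Upf1 loss. The 2 comparisons share the upf1 libraries, so their values are given side by side only: the voom medians by length class were 1.47, 1.26, 0.89 and 0.65 in upf1 CHX against upf1.

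With translation blocked in both strains, a difference with Upf1 loss was called at few XUTs. The treated groups had 2 libraries each, against 4 each in upf1 against WT, so a change of a given size was harder to call. The median log2 change in upf1 CHX against WT CHX was 0.17, against -0.09 over all tested features. In this comparison 21 of 279 were higher and 2 lower, beside 4.27% and 0.984% of all features. The counts were 37 and 6 with the replicate number as a block, and 8 higher without replicate 1 of upf1 CHX. All 21 were 500 nt or longer, and none was fully covered, but this did not hold without the density filter. With no filter 27 of 401 were higher (4.05% of features), of which 4 were under 500 nt and 4 fully covered, and by voom 28 (4.7% of features), of which 1 was under 500 nt and 0 fully covered. The 21 were 8 of the 106 tested XUTs of 500 nt to under 1000 nt, 10 of 53 of 1000 nt to under 2000 nt and 3 of 18 of 2000 nt and over. All 21 were also higher in upf1 against WT, which is 9.91% of the 212 called there, and over all features 320 of 321 were. These comparisons share no library, and their log2 changes had a Spearman rho of 0.598 over the 279, which share their depth and length.

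Among the XUTs with the largest remaining difference, XUT0603 over DAL4 had 0.438 and 0.402 reads per nt in upf1 CHX and 0.160 and 0.151 in WT CHX (1.32 ± 0.17, adjusted p = 1e-04, limma). XUT0788 had 0.982 and 0.880 in upf1 CHX and 0.354 and 0.368 in WT CHX (1.32 ± 0.16, adjusted p = 9.3e-05). XUT0314 had 0.567 and 0.494 in upf1 CHX and 0.216 and 0.203 in WT CHX (1.26 ± 0.16, adjusted p = 0.00016). In each the libraries of upf1 CHX stood clear of those of WT CHX, and each change was smaller than that in untreated cells. XUT0324 (chromosome 2, 711514-712611, 1098 nt), which crosses the glutaredoxin gene GRX3, had 0.232 and 0.203 in upf1 CHX and 0.0666 and 0.103 in WT CHX (1.20 ± 0.23, adjusted p = 0.0045). That call was lost without replicate 1 of WT CHX (0.94) or of upf1 CHX (1.11).

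XUT0490 over STE2, the gene of the alpha-factor receptor, was singled out after its values were seen. It averaged 0.161 ± 0.0018 reads per nt in upf1 CHX and 0.0634 ± 0.011 in WT CHX (SD, n = 2 each), a change of 1.12 (adjusted p = 0.0014, limma). The 2 XUTs that were lower were short. XUT0667 (chromosome 5, 696808-697204, 397 nt), over the start of NCAS_0E03510, had 0.0249 and 0.0242 in upf1 CHX and 0.0834 and 0.0976 in WT CHX (-1.31 ± 0.20, adjusted p = 0.00067). XUT0368 (chromosome 2, 1256644-1256971, 328 nt), within the ribosome-associated gene TMA108, had 0.0573 and 0.0585 in upf1 CHX and 0.114 and 0.145 in WT CHX (-0.93 ± 0.21, adjusted p = 0.011). The call for XUT0368 was lost without replicate 2 of WT CHX (-0.78) or without replicate 1 (-0.92) or 2 (-0.94) of upf1 CHX, with a pseudocount of 0.005 (-1.09) and by voom with no filter (-1.14). In untreated cells both were higher in upf1 than in WT, XUT0667 on 18 reads over the upf1 libraries and 2 over the WT ones.

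Under the deposited scaling the log2 change with Upf1 loss was lower with cycloheximide than without it at many XUTs. Written as the effect of Upf1 loss with cycloheximide minus that without, the interaction was called lower for 93 of 279 and higher for 0, beside 21.4% and 0.0133% of all features (limma). It was also higher for 0 at an unadjusted p under 0.05 and by voom and, with no filter, for 2 of 401 (0.0719% of features), and the count of lower calls was 49 without replicate 2 of upf1 CHX. The median mRNA had an interaction of -0.38 under the deposited scaling and -0.02 when scaled on the mRNAs. The 93 XUTs had log2 values between -2.03 and -0.68. In 27 of them the change with cycloheximide lay below 0, and in 6 of these, XUT0667 and XUT0368 included, it was at least as large in size as the change without. They made up 15 of 102 tested XUTs under 500 nt, 34 of 106 of 500 nt to under 1000 nt, 33 of 53 of 1000 nt to under 2000 nt and 11 of 18 of 2000 nt and over.

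XUT0352 over IME4 had the largest of these interactions, -2.03 ± 0.21 (adjusted p = 1.2e-05, limma): beside the upf1 and WT values above it had 3.67 and 3.29 reads per nt in upf1 CHX and 1.91 and 1.78 in WT CHX. Thus the strains differed by 0.91 on the log2 scale with cycloheximide and by 2.94 without. XUT0671 over MRX19 had 0.547 and 0.493 in upf1 CHX and 0.544 and 0.502 in WT CHX, which overlap, beside 0.119, 0.124, 0.213 and 0.202 in upf1, and an interaction of -1.83 ± 0.30 (adjusted p = 0.00035). XUT1009 (chromosome 10, 352820-353258, 439 nt) lies within SEN1, a helicase gene of non-coding transcription termination. It had 0.149 and 0.102 in upf1 CHX, 0.0523, 0.0640, 0.0922 and 0.0687 in upf1, 0.119 and 0.109 in WT CHX, and 0.0120, 0.00235, 0.00305 and 0 in WT (interaction -1.78 ± 0.30, adjusted p = 0.0005). At both of these the treated strains overlapped, whereas untreated upf1 stood above untreated WT in every library.

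**Figure D4:**
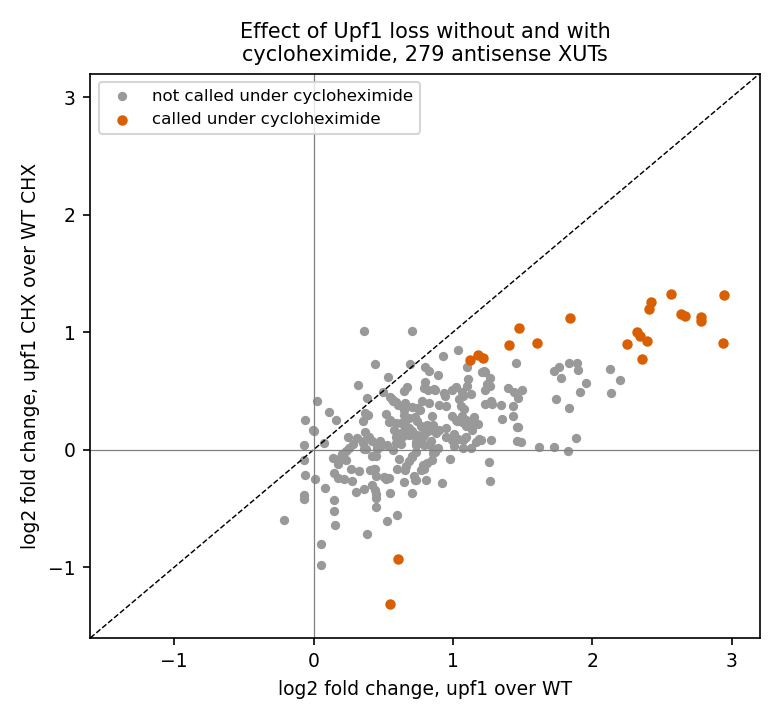
Log2 fold change of upf1 CHX over WT CHX (vertical) against that of upf1 over WT (horizontal) for the 279 tested antisense XUTs; the dashed line marks equal changes, and coloured points passed the test with cycloheximide. The 21 XUTs higher and 2 lower with cycloheximide are marked, and 265 of the 279 points lie below the dashed line. Under the deposited scaling the median mRNA interaction also lay below 0, at -0.38.

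In cells without Upf1, few antisense XUTs were called changed with the dcr1 allele. DCR1 was not found by name among the mRNAs, so loss of Dicer was not checked in the reads. With 2 dcr1 upf1 libraries against 4 of upf1, small changes were hard to call. In dcr1 upf1 against upf1 2 of 279 were higher and 1 lower, beside 0.333% and 0.173% of all features, and with the replicate number as a block the counts were 5 and 1. XUT0431 (chromosome 3, 47473-48382, minus strand), over the start of NCAS_0C00330, had 0.372 and 0.426 reads per nt in dcr1 upf1 and 0.0536, 0.0559, 0.0746 and 0.0593 in upf1. Both dcr1 upf1 libraries stood far above all others of the study (2.38 ± 0.14, adjusted p = 1.2e-08, limma), and the next highest libraries were those with cycloheximide at 0.182 to 0.200. Its opposite mRNA had 0 reads in all 4 upf1 libraries.

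XUT0909 (chromosome 8, 644589-645596, plus strand), which crosses NCAS_0H03390, had 1.47 and 1.5 reads per nt in dcr1 upf1 and 0.618, 0.610, 0.549 and 0.83 in upf1 (1.18 ± 0.16, adjusted p = 0.00045, limma). XUT0651 (chromosome 5, 574782-576913, plus strand), which crosses NCAS_0E02940, had 0.296 and 0.309 in dcr1 upf1 and 0.455, 0.443, 0.478 and 0.470 in upf1 (-0.58 ± 0.12, adjusted p = 0.044). The groups did not overlap at either, as the naming rule required. The fall of XUT0651 was lost with mRNA-ratio scaling (-0.38), with the compared groups alone and without any 1 of 11 libraries, upf1 and dcr1 upf1 ones included. None of these 3 was called in upf1 against WT. At 5 XUTs the opposite mRNA was higher in dcr1 upf1 while the XUT was not called, which are 4 of 363 distinct opposite mRNAs tested, beside 0.239% of all mRNAs: NCAS_0B02340, which faces XUT0294 and XUT0295, rose by 1.25, NCAS_0H00100 (XUT0841) by 1.35, NCAS_0H03380 (XUT0907) by 1.83 and NCAS_0H03660 (XUT0917) by 1.67. The first of these is the 1 pair of 261 whose ratio of XUT to sense mRNA changed, at XUT0294 (-1.37 ± 0.21, adjusted p = 0.0091, limma, beside 0.0965% of pairs), and it was not called with the replicate block. No ratio was called higher there by limma or voom, and 14 were higher at an unadjusted p under 0.05 in limma.

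Most antisense XUTs were far below the mRNA they face. The median XUT density as a share of that of its sense mRNA was 9.0% in dcr1 upf1, 12.3% in upf1 CHX, 9.17% in upf1, 10.3% in WT CHX and 3.75% in WT, over the 400 or 401 pairs whose mRNA had a read in the group. In WT 42 of 401 were at or above their mRNA and 94 under 1% of it. Over the 401, XUT and sense densities had a Spearman rho of -0.250 in upf1 and -0.119 in WT, a description in which each pair shares its library.

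Few genes opposite an antisense XUT fell, as few mRNAs fell at all in upf1 (0.661% of all mRNAs). Among 261 pairs with both partners tested in upf1 against WT, XUT and mRNA were both higher in 114, the XUT alone was higher in 81 and the mRNA alone in 25. Each partner was often higher on its own, at 212 of 279 tested XUTs and 179 of 363 tested opposite mRNAs. Whether partners rose together more often than unrelated features would was not tested. In 2 pairs the XUT was higher and the mRNA lower, which were named after their values were seen. XUT0365 rose by 0.65 ± 0.19 and NCAS_0B06070 fell by 0.36 on the log2 scale, and XUT0645 rose by 0.71 ± 0.20 and NCAS_0E02360 fell by 0.50 (adjusted p between 0.0068 and 0.013, limma). Both XUTs cover a 5′ end and are under 500 nt. Log2 changes of XUT and mRNA had a Spearman rho of 0.198 over the 261 pairs, which share libraries.

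The ratio of XUT to sense mRNA within a library, taken as the difference of their log2(density + 0.02) values and so touched by library scaling through the pseudocount, was higher in upf1 for 101 of 261 pairs and lower for 30, beside 32.1% and 17.5% of 1036 pairs of a non-coding feature and an mRNA. The split depended on the pseudocount: it was 143 and 19 with 0.005, 42 and 52 with 0.1, and 143 and 10 by voom on the reads. The ratio rose most for XUT0079 (2.69 ± 0.13), XUT0203 (2.51 ± 0.18) and XUT0492 (2.46 ± 0.20), whose genes TGL1, ANT1 and GAT1 were not called. TGL1 mRNA, for instance, had 0.304, 0.295, 0.417 and 0.329 reads per nt in upf1 and 0.355, 0.313, 0.329 and 0.361 in WT, groups that overlap.

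XUT0035 (chromosome 1, 349043-349547, minus strand, 505 nt) crosses AGA2, the adhesion subunit of a-agglutinin made by MATa cells. It had 0.0782, 0.0636, 0.0827 and 0.0503 reads per nt in upf1 and 0, 0.0102, 0.0053 and 0 in WT (1.90 ± 0.17, adjusted p = 4.8e-08, limma), with a rise in ratio of 2.48 ± 0.30. AGA2 mRNA had 0.0134, 0.00251, 0.0147 and 0 in upf1 and 0.0198, 0.00386, 0.020 and 0.0495 in WT and was not called. With cycloheximide the mRNA reached 1.0 and 1.13 in upf1 CHX and 4.60 and 4.42 in WT CHX, while the XUT had 0.123 and 0.0997 in upf1 CHX and 0.0683 and 0.0561 in WT CHX. Between these treated strains the mRNA was called lower without Upf1 (-2.06 ± 0.38, adjusted p = 0.0051, limma), and the XUT was not called there (0.68 ± 0.24, adjusted p = 0.12).

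In the 4 pairs with the largest fall in ratio the mRNA rose, and of their XUTs only XUT0713 was called, also higher (0.59 ± 0.16, adjusted p = 0.0068, limma). XUT0506 (chromosome 3, 900727-901042, 316 nt) lies within ARG8, a gene of arginine synthesis: the XUT had 0.0159, 0.0148, 0.00826 and 0.0101 reads per nt in upf1 and 0, 0, 0.00423 and 0.0114 in WT, and was not called. ARG8 mRNA had 1.37, 1.35, 2.08 and 1.93 in upf1 and 0.374, 0.307, 0.455 and 0.440 in WT, clear of each other (2.03 ± 0.15, adjusted p = 3.5e-09, limma). Its fall in ratio of -1.58 ± 0.23 was lost by voom on the reads (-0.17), which adds a fraction of a read in place of the pseudocount. At XUT0713, XUT0498 and XUT0428 the ratio changed by -1.86, -1.65 and -1.52, with rises of 2.46, 1.82 and 1.91 for the mRNAs NCAS_0F01680, NCAS_0C04140 and NCAS_0C00250.

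**Figure D5:**
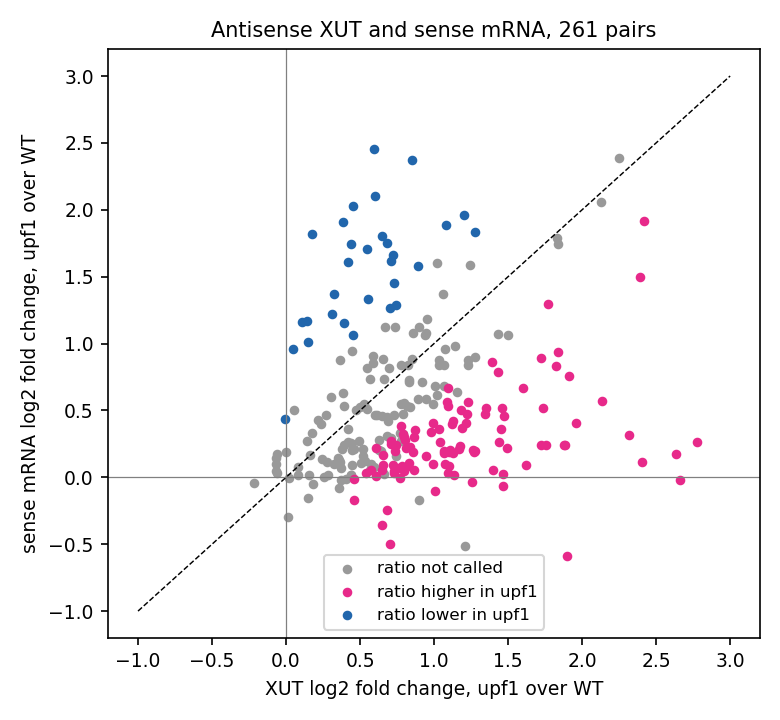
Log2 fold change of upf1 over WT for the sense mRNA (vertical) and for the antisense XUT (horizontal) in 261 pairs; the dashed line marks equal changes and colours mark pairs whose ratio was called (101 higher, 30 lower). Points with a higher ratio lie mainly at XUT changes above those of the mRNA, and few mRNAs lie below 0.

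In WT CHX against WT the ratio was higher for 69 pairs and lower for 41, beside 18.7% and 25.4% of 1036 pairs. With a pseudocount of 0.1 it was higher for 18 and lower for 154, and by voom higher for 138 and lower for 15, so that its direction rests on how low values are treated.

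Most genes on a list of NMD and RNA decay were not called in upf1, although several NMD factors on it were. Of 32 listed by their S. cerevisiae names 30 were found and tested, all but DCR1 and AGO1, and 7 were higher and 1 (NAM7) lower in upf1 against WT, beside 36.2% and 0.661% of all mRNAs. The higher ones include the NMD factors UPF3 (0.78 ± 0.12), NMD4 (1.59 ± 0.15) and EBS1 (0.84 ± 0.10), the casein kinase HRR25 (1.5 ± 0.14) and the decapping subunit DCP1 (0.65 ± 0.10). EDC2, an enhancer of decapping (0.52 ± 0.11), and LSM1, of the Lsm ring that activates it (0.25 ± 0.10, adjusted p = 0.048, limma), were higher too. The NMD factor NMD2 was not called (0.36 ± 0.14, adjusted p = 0.052, limma), nor were RRP6, DIS3 and MTR4, of the exosome and its helicase. NMD4, for example, averaged 1.15 ± 0.28 reads per nt in upf1 and 0.362 ± 0.056 in WT (SD, n = 4 each). The median log2 change of the 30 was 0.07 in upf1 against WT, beside 0.20 over all tested mRNAs. With cycloheximide 28 of 30 were higher in WT CHX against WT (median 1.18, all tested mRNAs 1.35), beside 98.1% of mRNAs, and 24 in upf1 CHX against upf1, beside 90.8%. In dcr1 upf1 against upf1 none of the 30 was called by limma or voom, beside 0.239% of mRNAs higher and 0.11% lower, and at an unadjusted p under 0.05 in limma 0 were higher and 1 lower.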

How the data were processed

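Strand-specific total RNA-seq of 14 libraries in 5 groups was analysed. Trim Galore, HISAT2 2.2.0, DESeq2 and featureCounts 2.0.0 are listed, without their roles, in the submitters' processing notes. Build, annotation and strand setting of the counting: not given in the sources used here. Coordinates are those of the deposited table, and 5586 of its 5599 mRNAs have the same start and end in RefSeq's assembly ASM23734v1, used for names only. Reads of the ERCC spike-in mix named in the labels' protocols were not used.

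The deposited values are a signal, a normalised read density: the authors divided a count per feature by a size factor and by the feature length, a form checked on the numbers themselves. All values (100%) gave whole reads within 0.001, so reads were recovered. The 5 deposited columns of group means were not used. Of 8602 deposited lines 259 repeat the coordinates of an earlier one and were left out. Totals per library ranged from 7895089 to 22437334 recovered reads, and intervals and limits on low counts cover counting error only.

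Groups came from the sample titles. Tests used limma 3.58.1 with statmod 1.5.0 in R 4.3.3 on log2(density + 0.02) of the 7518 features with a mean density of at least 0.02. All 14 libraries entered 1 model of 5 group means (9 residual degrees of freedom, eBayes with trend and robust), with Benjamini-Hochberg adjustment over all features and a call at an adjusted p under 0.05. Fold changes of low features are understated on this scale. Ratios of a non-coding feature to the opposite mRNA with the largest overlap were fitted the same way over 1036 pairs. Errors of fold changes are standard errors from limma. Spearman correlations across XUTs are descriptions, since XUTs are no replicates. The procedure was tested on simulated data.

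The members, lists, classes and the naming rule were chosen with earlier results of these data known. The rule names, among called members with no overlap between groups and a mean at or above the members' median in the higher group, the 8 largest rises in upf1 against WT and up to 4 each way elsewhere. It adds the 3 largest interactions, the 4 largest changes in ratio each way, and the 3 longest, the 3 with the longest overlap and the 3 most abundant in WT. Others are marked as named after their values were seen.

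Replicate numbers come from the titles. For replicates 1 to 4 the deviations of a WT library and its upf1 counterpart had correlations of 0.365, 0.432, 0.209 and 0.354. Only libraries of the same number were compared. These values therefore cannot tell pairing by number from a difference shared by replicates 1 and 2 against 3 and 4. The main model has no pairing term, and the replicate block is an alternative. Replicates 1 of the other pairs of groups examined had -0.04 to 0.06. Alternatives were other pseudocounts (0.005, 0.1), no filter or one at 0.1, mRNA-ratio scaling, the replicate block, the compared groups alone, replicates 1 and 2 or 3 and 4 alone, voom on the reads, stricter overlap rules and leaving out each library. Voom without a filter and a voom ratio were added after the data were seen.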

Additional observations from a re-analysis of the deposited data

Results flagged for a closer look

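Among 72 groups of 4 libraries of the named XUTs and their values examined for a library far from the rest, 3 stood out, and chance gives about 1 in 20 such groups. XUT0203 had 0.947 reads per nt in replicate 3 of upf1, XUT0197 had 0.0294 in replicate 4 of upf1, and XUT0368 had 0.0387 in replicate 4 of upf1, each the highest library of its group.

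Under the deposited scaling, the effect of Upf1 loss differed between treated and untreated cells for 93 of the 279 tested antisense XUTs. By the interaction term of limma, each had a lower log2 change under cycloheximide. In 27 of the 93 the change under cycloheximide lay below 0. XUT0667 and XUT0368 are the 2 whose fall under cycloheximide was itself called, after a rise without it. That rise rests on few reads for XUT0667, 18 over the upf1 libraries and 2 over the WT ones. Of the 34 named XUTs 19 are among the 93. The interactions on the log2 scale were -1.63 for XUT0788, -2.03 for XUT0352, -1.65 for XUT0787, -1.69 for XUT0203, -1.52 for XUT0079, -1.48 for XUT0492, -1.24 for XUT0603 and -1.16 for XUT0314, the 8 with the largest rise in upf1. They were -1.83 for XUT0671, -1.6 for XUT0253, -1.21 for XUT0324, -1.85 for XUT0667, -1.54 for XUT0368, -1.78 for XUT1009, -1.22 for XUT0035 and -1.10 for XUT0428. For the long XUT0568, XUT0429 and XUT0507 they were -0.89, -1.59 and -0.91.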

How the results depend on the processing

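No direction of a named XUT or ratio reversed under any alternative run, and 799 of their values kept their side of the threshold while 21 did not. Those belong to XUT0324, XUT0368, XUT0651 and the ratio of XUT0506. The main limits are depth, since the median XUT had 12 reads over the WT libraries, the pseudocount, and groups of 2 libraries. Values follow as XUTs higher or lower in the order of the comparisons in the report, and the cause of each shift was not tested except where fewer XUTs were tested.

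A filter at a density of 0.1 left 53 XUTs to test. It gave 40 higher in upf1 against WT, 50 in WT CHX against WT, 38 in upf1 CHX against upf1, 0 lower in upf1 CHX against WT CHX and 38 lower interactions. Ratios were then higher for 15 and lower for 2 pairs in upf1 against WT, higher for 14 and lower for 4 in WT CHX against WT, and lower for 0 in dcr1 upf1 against upf1.

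With mRNA-ratio scaling 5 XUTs were lower in upf1 against WT and 7 in WT CHX against WT. It gave 55 higher and 30 lower in upf1 CHX against upf1, 36 and 4 in upf1 CHX against WT CHX, and 0 lower in dcr1 upf1 against upf1.

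In upf1 CHX against WT CHX a pseudocount of 0.1 gave 43 higher and 5 lower, and one of 0.005 gave 1 lower. The replicate block gave 37 and 6, the compared groups alone 47 and 7, and replicates 1 and 2 alone 42 and 6. The block moved the counts of dcr1 upf1 against upf1 to 5 higher and its 1 lower ratio to 0, and changed no other count by over 1.5 times. For that comparison, replicates 1 and 2 alone gave 6 higher and 0 lower ratios, the compared groups alone 0 lower XUTs and 0 lower ratios, and an overlap of at least 50% 0 higher and 0 lower.

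The interaction was higher for 1 XUT with a pseudocount of 0.1 and for 2 with no filter. It was lower for 150 by voom and for 165 by voom with no filter.

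For the ratio in upf1 against WT, 42 were higher with a pseudocount of 0.1, and 19, 52 and 10 lower with pseudocounts of 0.005 and 0.1 and by voom. In WT CHX against WT these 3 settings gave 110, 18 and 138 higher and 17, 154 and 15 lower. In dcr1 upf1 against upf1 they gave 0, 2 and 2 lower.

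Leaving out 1 library at a time gave 8 to 27 higher and 1 to 4 lower in upf1 CHX against WT CHX, with 8 higher without replicate 1 of upf1 CHX and 13 without replicate 1 of WT CHX. It gave 0 to 1 lower in dcr1 upf1 against upf1 and 49 to 99 lower interactions, with 49 without replicate 2 of upf1 CHX and 57 without replicate 2 of WT CHX. Ratios were higher for 44 to 70 and lower for 24 to 46 in WT CHX against WT, the 44 without replicate 1 and the 24 without replicate 2 of WT CHX, and lower for 0 to 2 in dcr1 upf1 against upf1.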
